A study of Mus musculus with 10 samples.

Results

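The transcripts of 9 transcription factors that direct epidermal differentiation, Trp63, Klf4, Grhl1, Grhl2, Grhl3, Cebpa, Cebpb, Zfp750 and Ovol1, were compared between ILK-deficient and ILK-expressing mouse epidermis. They were chosen by name, and each was read from the probe set that carries its gene symbol alone in the platform annotation. Every one of the 9 genes had 1 such probe set, so that they are 9 of 19938 genes with such a probe set and 9 of the 35556 probe sets in the table, and all of them passed the filter on low values that left 32046 probe sets for testing. The series holds 10 GeneChip Mouse Gene ST arrays, 5 per genotype, each of epidermis that had been split from the dermis of 1 mouse, 3 days old, with dispase. ILK-deficient mice (K14Cre; Ilk f/f) carried 1 copy of the KRT14-cre transgene and floxed Ilk on both alleles. ILK-expressing mice (K14Cre; Ilk f/+) carried the same transgene and a single floxed allele, so Cre and at least 1 floxed allele were common to all animals. The keratin 14 promoter drives Cre in basal keratinocytes and their progeny, which include the hair follicle, whereas melanocytes, leukocytes and other cells of the same tissue are not targeted. The comparison asks which transcripts differ once the epidermis forms without ILK, a scaffold protein of integrin adhesions.

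Trp63 encodes p63, which keratinocytes need in order to form and renew a stratified epidermis, and its probe set pools the isoforms. The grainyhead-like factors Grhl1, Grhl2 and Grhl3 act on epithelial junctions and on the barrier. Klf4, a zinc finger factor of suprabasal cells, is needed for barrier formation, and Zfp750, a target of p63, acts with Klf4 late in differentiation. Cebpa and Cebpb encode C/EBP factors that accompany the exit from the basal layer, and Ovol1 encodes a zinc finger repressor that restrains the proliferation of keratinocyte progenitors. Values are log2 signals of the deposited, normalized table, and log2 fold changes are given as ILK-deficient minus ILK-expressing. Limma's p values were adjusted by the Benjamini-Hochberg method across every probe set in the test, and a gene is said to have risen or fallen where the adjusted p was under 0.05.

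The Ilk probe set, which pools exons inside and outside the floxed segment, lay between 8.75 and 9.07 on the ILK-deficient arrays and between 9.01 and 9.38 on the ILK-expressing arrays (log2 fold change -0.23, adjusted p = 0.253 from limma). It therefore checks the genotype labels little. Array medians lay between 7.07 and 7.17. Keratinocyte markers had high values throughout, with 1 of 8, Krt14, lower in ILK-deficient epidermis, whereas all 4 endothelial markers had mean log2 values under 7. Markers of other compartments differed strongly between the genotypes. Of the 9 hair shaft and inner root sheath markers tested, 8 fell, with linear sums of 1153 to 3667 on ILK-deficient and 13200 to 60788 on ILK-expressing arrays. Of the 6 outer root sheath and bulge markers 5 rose, with sums of 16574 to 22800 against 13057 to 14952, and of the 7 melanocyte markers 5 rose, with sums of 7140 to 13397 against 1980 to 4910. Leaving out 1 array left 7 to 8 of the hair shaft and inner root sheath, 2 to 5 of the outer root sheath and bulge and 2 to 5 of the melanocyte markers called. The outer root sheath and bulge count was 2 without ILK-deficient replicate 2 or 5 or ILK-expressing replicate 2, and 3 without ILK-deficient replicate 1 or 4. The melanocyte count was 2 without ILK-deficient replicate 2, 4 or 5 or ILK-expressing replicate 5, and 3 without ILK-deficient replicate 1 or ILK-expressing replicate 2, 3 or 4. Among the mice whose code in the labels begins with D, 6, 2 and 1 markers of these lists, in that order, were called, and the methods' analysis of variance called 7, 3 and 1. Of the other marker lists, 1 of 6 leukocyte markers rose, 1 of 5 sebocyte markers fell, and none of 6 fibroblast or 4 cycling cell markers passed. All 5 sebocyte markers nevertheless had a log2 fold change below 0, with a median of -0.76. All 6 fibroblast markers lay above 0, with a median of 0.20. The median was 0.12 for leukocyte and -0.02 for cycling cell markers. In whole tissue, fewer cells of a type and less RNA per cell cannot be told apart, which holds for every value given here.

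RefSeq promoter windows on GRCm38.p6 were at hand for Klf4, Grhl1 (from 2 transcription starts), Grhl3, Cebpa and Cebpb, which makes 6 windows of 5 genes. They are described because each of these factors has a known binding sequence that can be looked for upstream of the others. The 250 bases upstream of each start were searched on both strands for the grainyhead sequence AACCNGTT and the KLF sequence CACCC. A C/EBP-like sequence, TTGCNNCAA, and a repeat that p63 can bind were searched as well. TTGCNNCAA differs in spacing from the C/EBP palindrome, which was not searched. The KLF sequence was found in 4 of the 6 windows and in 52.0% of 32851 mouse promoter windows of that length. The C/EBP-like sequence was found in 1 of the 6 and in 1.74% of all windows. The grainyhead sequence (1.79% of all windows) and the p63 repeat (0.49%) were found in none. Those windows of Grhl3 and Grhl1 that held the most matches are printed 5′ to 3′ on the strand of the gene, with matches in capitals. The Grhl3 window lies at chr4:135573633-135573882 on the minus strand, and its capitals mark 3 CACCC sequences. The Grhl1 window lies upstream of the downstream start at chr12:24580469-24580718 on the plus strand. Its capitals mark 1 C/EBP-like match followed by 2 KLF matches, all 3 of which read as the searched sequence on the opposite strand.
Grhl3: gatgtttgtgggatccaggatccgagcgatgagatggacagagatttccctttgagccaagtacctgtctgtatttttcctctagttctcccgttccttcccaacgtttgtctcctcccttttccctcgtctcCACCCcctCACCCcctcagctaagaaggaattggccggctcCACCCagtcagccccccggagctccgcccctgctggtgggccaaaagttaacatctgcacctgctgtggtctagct
Grhl1: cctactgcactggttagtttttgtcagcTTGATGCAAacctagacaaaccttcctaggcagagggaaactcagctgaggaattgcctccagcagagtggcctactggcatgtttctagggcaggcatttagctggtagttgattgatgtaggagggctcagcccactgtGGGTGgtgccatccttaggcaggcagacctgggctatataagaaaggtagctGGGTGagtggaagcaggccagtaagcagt
A match in such a window is a description of its letters, and binding was not measured in these arrays.

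Trp63 rose, and it was the single factor of the 9 to pass the test. Its log2 values were 12.03, 11.98, 11.90, 11.81 and 12.00 on the ILK-deficient arrays and 11.69, 11.58, 11.69, 11.53 and 11.49 on the ILK-expressing arrays. All 5 ILK-deficient arrays lay above all 5 ILK-expressing arrays, with a gap of 0.12 between the nearest. The means were 11.94 ± 0.0917 (SD, n = 5) and 11.60 ± 0.092 (SD, n = 5), so that Trp63 was 1.27-fold higher (95% interval 1.15 to 1.41), a difference of 0.35 on the log2 scale with a standard error of 0.0669 (adjusted p = 0.0204 from limma). An exact permutation test over the 10 arrays, two-sided, gave p = 0.00794, the smallest that 5 arrays against 5 allow. Over 22 alternative analyses the difference was 0.27 to 0.38, and the adjusted p was under 0.05 in 15 of them. The call was lost without ILK-deficient replicate 1 (adjusted p = 0.0536), 2 (adjusted p = 0.0501) or 5 (adjusted p = 0.0592) or ILK-expressing replicate 4 (adjusted p = 0.0552), each from limma. Mouse codes in the labels begin with D for 4 ILK-deficient and 3 ILK-expressing mice and otherwise with C prime or D prime, a mark whose meaning is not given. With the prefix as a block the log2 fold change was 0.32 (adjusted p = 0.0586 from limma), and among the D mice alone it was 0.27 (adjusted p = 0.235 from limma). The part of the changed follicle and melanocyte markers in the rise of Trp63 was not tested.

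**Figure D1:**
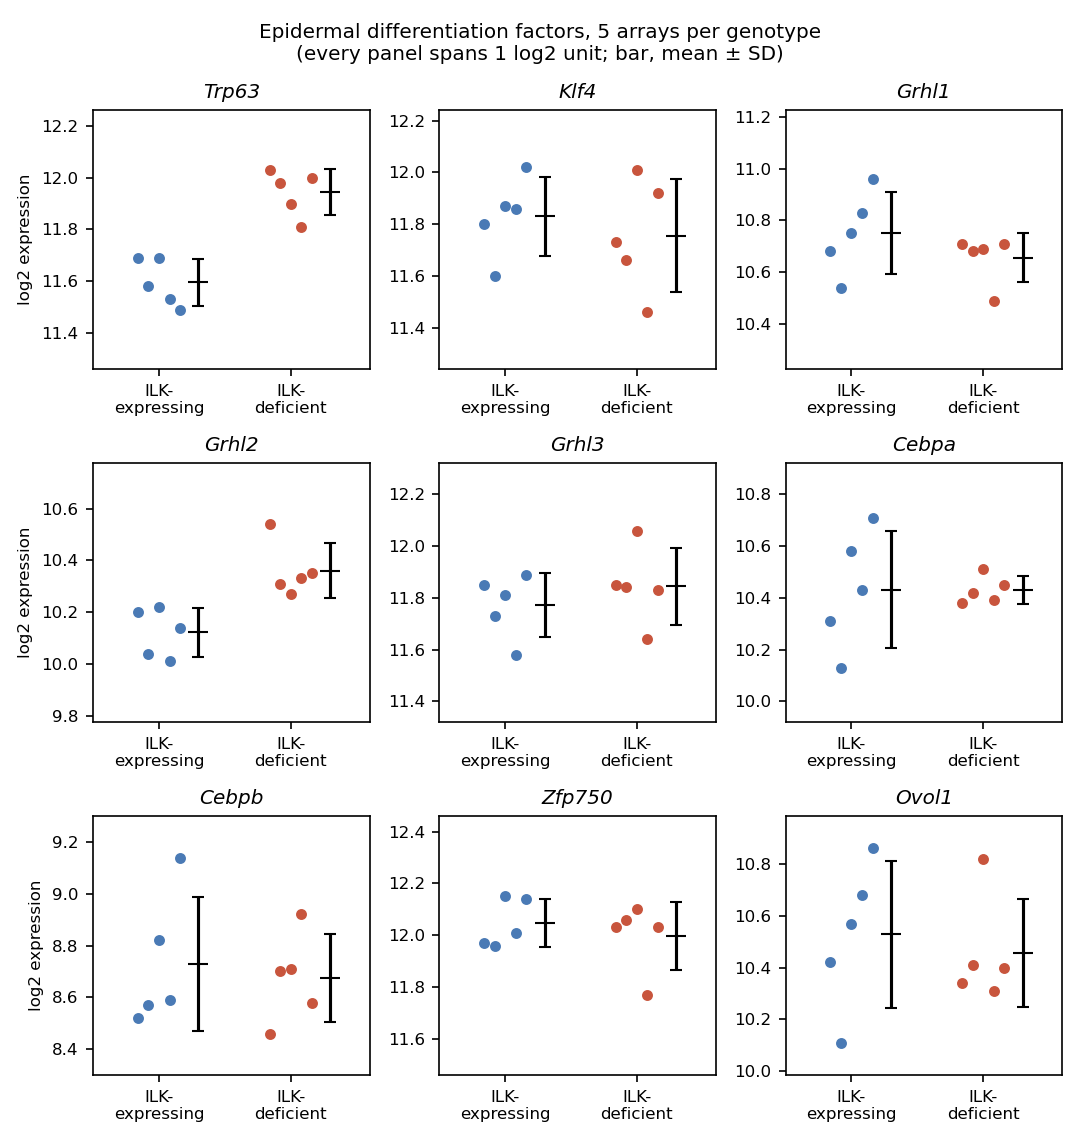
log2 expression of the 9 factors on each ILK-expressing (blue) and ILK-deficient (red) array, replicates 1 to 5 from left to right within a genotype, with the mean ± SD as a black bar and 1 log2 unit spanned by every panel. The genotypes do not overlap for Trp63 and Grhl2, and they overlap for the other 7.

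Grhl2 showed a smaller difference in the same direction, which did not pass the test. Its log2 values were 10.54, 10.31, 10.27, 10.33 and 10.35 on the ILK-deficient arrays and 10.20, 10.04, 10.22, 10.01 and 10.14 on the ILK-expressing arrays. The genotypes did not overlap, but the lowest ILK-deficient and the highest ILK-expressing array were only 0.05 apart. The means of 10.36 ± 0.105 (SD, n = 5) and 10.12 ± 0.092 (SD, n = 5) differed by 0.24 with a standard error of 0.0699 (adjusted p = 0.101 from limma), which is 1.18-fold (95% interval 1.06 to 1.31). The exact permutation p, two-sided, was 0.00794, and limma's unadjusted p was 0.00644. None of the 22 alternative analyses brought the adjusted p under 0.05, and the difference stayed between 0.19 and 0.26. Among the D mice it was 0.21 (adjusted p = 0.456 from limma).

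The other grainyhead-like factors showed no such separation. Grhl1 was at 10.71, 10.68, 10.69, 10.49 and 10.71 on the ILK-deficient and at 10.68, 10.54, 10.75, 10.83 and 10.96 on the ILK-expressing arrays. The ILK-deficient values fell inside the range of the ILK-expressing values except for replicate 4, and the log2 fold change was -0.10 (95% interval -0.28 to 0.09, adjusted p = 0.704 from limma). Grhl3 was at 11.85, 11.84, 12.06, 11.64 and 11.83 on the ILK-deficient and at 11.85, 11.73, 11.81, 11.58 and 11.89 on the ILK-expressing arrays. These ranges overlapped, with ILK-deficient replicate 3 above every ILK-expressing array and ILK-expressing replicate 4 below every ILK-deficient array, and the log2 fold change was 0.07 (95% interval -0.12 to 0.27, adjusted p = 0.818 from limma).

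The late factors Klf4 and Zfp750 differed by less than the spread between arrays. Klf4 was at 11.73, 11.66, 12.01, 11.46 and 11.92 on the ILK-deficient and at 11.80, 11.60, 11.87, 11.86 and 12.02 on the ILK-expressing arrays. Its log2 fold change was -0.07 (95% interval -0.32 to 0.17, adjusted p = 0.867 from limma), with the lowest array among the ILK-deficient and the highest among the ILK-expressing. Zfp750 was at 12.03, 12.06, 12.10, 11.77 and 12.03 on the ILK-deficient and at 11.97, 11.96, 12.15, 12.01 and 12.14 on the ILK-expressing arrays. The log2 fold change was -0.05 (95% interval -0.22 to 0.12, adjusted p = 0.877 from limma), and without ILK-deficient replicate 4, the lowest array, it was 0.01.

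Neither the C/EBP factors nor Ovol1 differed beyond their spread between mice, which was wide in ILK-expressing epidermis. Cebpa had the same mean in both genotypes, 10.43, but its SD was 0.0527 among the 5 ILK-deficient and 0.228 among the 5 ILK-expressing arrays. Its values were 10.38, 10.42, 10.51, 10.39 and 10.45 in ILK-deficient epidermis, all inside the spread of the ILK-expressing values of 10.31, 10.13, 10.58, 10.43 and 10.71. Its log2 fold change was 0.00 (95% interval -0.22 to 0.22, adjusted p = 1.0 from limma). Cebpb was at 8.46, 8.70, 8.71, 8.92 and 8.58 on the ILK-deficient and at 8.52, 8.57, 8.82, 8.59 and 9.14 on the ILK-expressing arrays. Its log2 fold change was -0.05 (95% interval -0.34 to 0.23, adjusted p = 0.93 from limma), and 0.05 without ILK-expressing replicate 5, the highest array. Ovol1 was at 10.34, 10.41, 10.82, 10.31 and 10.40 on the ILK-deficient and at 10.42, 10.11, 10.57, 10.68 and 10.86 on the ILK-expressing arrays. Its log2 fold change was -0.08 (95% interval -0.39 to 0.24, adjusted p = 0.906 from limma), the widest interval of the 9.

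Across the set, 1 of the 9 factors rose, none fell and 8 did not pass. Over all probe sets tested, 3.78% passed, 2.81% higher and 0.97% lower in ILK-deficient epidermis. An unadjusted p under 0.05 was reached by 2 of the 9 factors and by 15.9% of all probe sets. The study's rule of an unadjusted p under 0.05 together with a change of at least 1.5-fold took none of the 9 and 2.63% of all probe sets. Genotypes without overlap were seen for 2 of the 9 factors and for 6.33% of all probe sets. The median log2 fold change was -0.05 over the 9 factors and 0.00 over all probe sets, and the median absolute value was 0.07 and 0.09. For the 7 factors whose genotypes overlapped, the bounds of the 95% intervals of the fold ran from 0.762 to 1.2. The intervals of all 9 lay within 1.5-fold in either direction, which limits the size of any difference without showing that there was none.

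**Figure D2:**
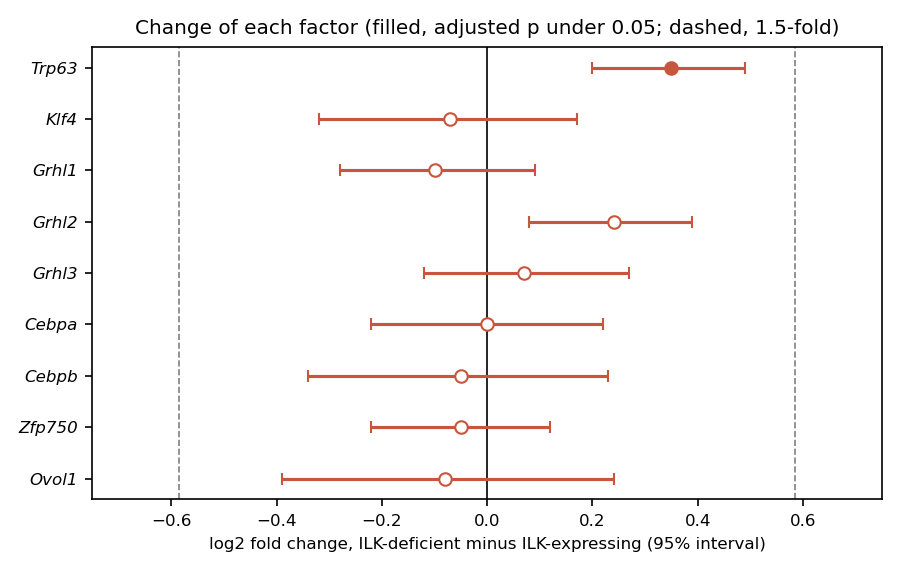
log2 fold change of each factor, ILK-deficient minus ILK-expressing, with its 95% interval from limma, a filled point where the adjusted p was under 0.05 and dashed lines at 1.5-fold. Only Trp63, at 0.35, is filled, Grhl2 at 0.24 is the other factor whose interval lies above 0, and no interval reaches a dashed line.

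Whether the factors changed unequally was examined within arrays, in all 36 pairs, as the difference between 2 log2 values of 1 array. This comparison was added after the values were seen. The difference itself has no meaning across probe sets, but its shift between genotypes is the difference of 2 changes. Trp63 shifted against Grhl1 by 0.44 (standard error 0.101) and against Zfp750 by 0.39 (standard error 0.0737), and Grhl1 shifted against Grhl2 by -0.33 (standard error 0.095), each without overlap of the genotypes. The exact permutation p of each was 0.00794, two-sided, and 0.0952 after adjustment over the 36 pairs, so that no pair passed. As 0.00794 is the smallest p that 5 arrays against 5 allow, 3 pairs at it cannot pass this adjustment, whatever their shifts. The adjusted p therefore does not decide whether the factors changed unequally. Trp63 shifted against Grhl2 by 0.11 (exact permutation p = 0.0952, adjusted p = 0.264) and against Klf4 by 0.42 (exact permutation p = 0.0238, adjusted p = 0.171).

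Within a genotype several factors moved together from mouse to mouse. Each value was taken as its deviation from the mean of its own genotype. ILK-deficient replicate 4 had the lowest value of its genotype for 6 of the 9 factors, with a median deviation of -0.15, and ILK-expressing replicate 2 the lowest for 5, with a median of -0.16. ILK-expressing replicate 5 had the highest value for 6, with a median of 0.19, and ILK-deficient replicate 3 for 5. The same counts over all probe sets are not given here, and the part of shifts of whole arrays was not tested. All 9 factors were below their mean in ILK-expressing replicate 2, and all but Cebpb in ILK-deficient replicate 4. Deviations ran from -0.42 (Ovol1) to -0.02 (Trp63) in the former, and from -0.29 (Klf4) to -0.03 (Grhl2) among those below in the latter. Cebpb departed from this in ILK-deficient replicate 4, where it was the highest of its genotype at 0.25.

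**Figure D3:**
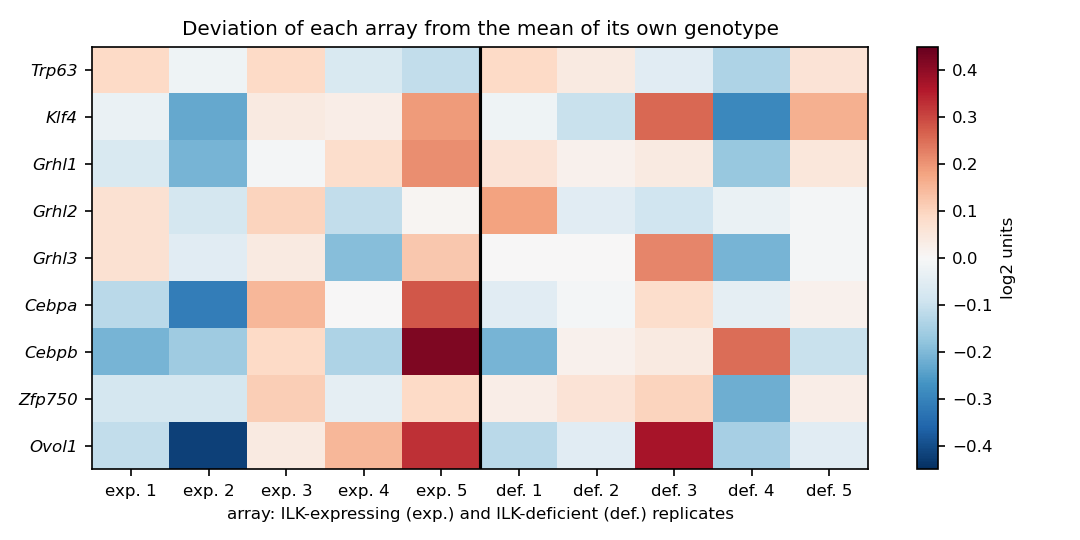
Deviation of each factor (rows) on each array (columns) from the mean of its own genotype, in log2 units, red above and blue below the mean. The column of ILK-expressing replicate 5 (exp. 5) is mostly red. Those of ILK-expressing replicate 2 (exp. 2) and ILK-deficient replicate 4 (def. 4) are mostly blue. Deviations of Trp63 and Grhl2 lie between -0.14 and 0.18.

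As a description over the 10 arrays, which share their normalization, the deviations of Klf4 and Ovol1 had Pearson's r = 0.81, those of Klf4 and Zfp750 r = 0.79 and those of Cebpa and Ovol1 r = 0.84. Without the 2 arrays farthest from the median of the first gene these were 0.81, 0.58 and 0.58. The deviations of Trp63 had r = 0.63 with those of Grhl2, -0.63 with those of Cebpb and 0.11 with those of Klf4, and 0.88, -0.09 and -0.12 without 2 such arrays. Among 18120 genes with a single symbol, the one whose deviations were most like those of a factor was Atxn2l for Trp63 (r = 0.959), Abtb2 for Klf4 (r = 0.980), Hspa4l for Grhl1 (r = 0.970), Tada2a for Grhl2 (r = 0.961) and Khnyn for Grhl3 (r = 0.972). It was Dohh for Cebpa (r = 0.980), Mocs2 for Cebpb (r = 0.944), Klf13 for Zfp750 (r = 0.963) and Clu for Ovol1 (r = 0.961). These are the highest of many correlations over few arrays.

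Of the family relatives of the 9 factors, 23 of 26 were tested, and 2 rose, 1 fell and 20 did not pass, with a median log2 fold change of 0.12. Klf7, a Krüppel-like factor known from neurons, rose from 8.70 ± 0.175 (SD, n = 5) to 9.41 ± 0.208 (SD, n = 5), 1.64-fold, with no ILK-deficient array (9.07 to 9.60) as low as the highest ILK-expressing array (8.87), and it passed in 21 of 22 alternative analyses (adjusted p = 0.00933 from limma). Klf13 rose by 0.52 (adjusted p = 0.0419 from limma, 7 of 22 alternatives), and its genotypes overlapped. Klf3, which encodes a repressor that binds CACCC sequences, fell 1.23-fold, at 11.24 to 11.46 in ILK-deficient against 11.60 to 11.80 with ILK present (limma's adjusted p = 0.0335, passed in 9 of 22 alternatives). The abundant relatives Klf5 and Klf6 had log2 fold changes of -0.12 (adjusted p = 0.686 from limma) and 0.46 (adjusted p = 0.19 from limma).

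Among 34 other factors of the epidermis that were tested, 2 rose and 2 fell, Klf3 being 1 of the latter, and the median was 0.09. Dlx3, a homeobox factor of the suprabasal epidermis and of the hair matrix and hair shaft, fell 1.74-fold. Its values of 8.91, 9.33, 8.96, 9.08 and 8.89 on the ILK-deficient arrays lay below all ILK-expressing values of 9.54, 9.84, 9.35, 10.11 and 10.31 (log2 fold change -0.80, adjusted p = 0.0332 from limma, 12 of 22 alternatives), although the nearest arrays were close together. Markers of the hair shaft fell on the same arrays, and their part in the value of Dlx3 was not tested. Runx1, a runt factor expressed in the hair follicle, rose by 0.44 (adjusted p = 0.0236 from limma) and Tfap2c, an AP-2 factor of keratinocytes, by 0.35 (adjusted p = 0.0241 from limma), each in 17 of 22 alternatives and without overlap. Tfap2a, another AP-2 factor, had a log2 fold change of 0.20 (adjusted p = 0.188 from limma) and Pou2f3, a POU factor of suprabasal cells, of -0.11 (adjusted p = 0.602 from limma). Of 17 cofactors and chromatin regulators, Ezh2, the Polycomb methyltransferase, rose by 0.27 (adjusted p = 0.0338 from limma, 9 of 22 alternatives) and 16 did not pass, among them Hdac1 at -0.05 and Hdac2 at 0.00.

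**Figure D4:**
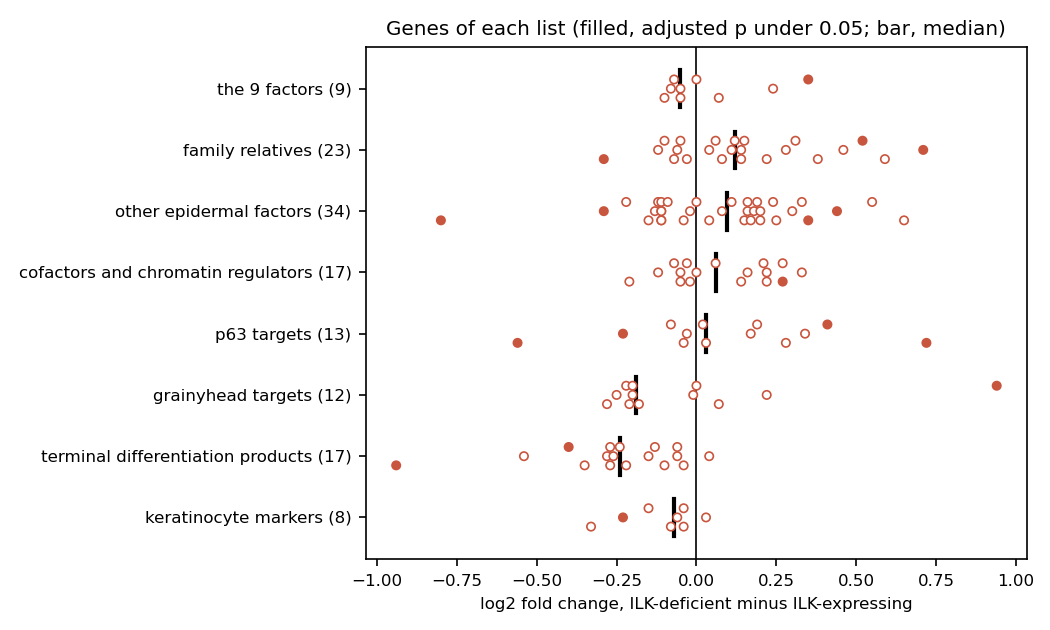
log2 fold change, ILK-deficient minus ILK-expressing, of the tested genes of each list (number in brackets), with a filled point where the adjusted p was under 0.05 and the list's median as a black bar. The 9 factors have a median of -0.05, p63 targets of 0.03 with calls in both directions, and terminal differentiation products of -0.24 with 16 of 17 genes below 0.

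Known targets of p63 differed in both directions, with 2 of 13 higher, 2 lower and a median of 0.03. Fgfr2, which encodes a receptor of fibroblast growth factors, rose 1.32-fold, at 12.12 to 12.31 in ILK-deficient against 11.70 to 11.92 with ILK present (limma's adjusted p = 0.00838, passed in 20 of 22 alternatives). Dystonin, a linker in hemidesmosomes encoded by Dst, was higher by 0.72 (adjusted p = 0.0211 from limma, 15 of 22 alternatives). Fras1, a basement membrane protein, fell by 0.56 on the log2 scale (adjusted p = 0.0313 from limma, 10 of 22 alternatives). Krt14, the basal keratin whose promoter drives Cre here, fell by 0.23 on the log2 scale (adjusted p = 0.0452 from limma, 9 of 22 alternatives), with 13.06 to 13.19 against 13.27 to 13.44. Its partner keratin Krt5 had a log2 fold change of -0.08 (adjusted p = 0.601 from limma) and the desmosomal p63 target Perp of 0.03 (adjusted p = 0.905 from limma).

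Of 12 targets of grainyhead-like factors, 1 rose and none fell. Tgm5, an epidermal transglutaminase, rose 1.92-fold, from 9.61 to 10.05 in ILK-expressing to 10.58 to 11.09 in ILK-deficient epidermis, and passed in all 22 alternatives (log2 fold change 0.94, adjusted p = 0.00205 from limma). The median of the 12 was -0.19, and Cdh1, which encodes E-cadherin, was at -0.01 (adjusted p = 0.967 from limma) and Rab25, a GTPase of epithelial vesicle transport, at -0.18 (adjusted p = 0.146 from limma).

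Products of terminal differentiation had differences mostly of 1 sign. Of 17 tested, 2 fell, none rose, 16 had a log2 fold change below 0, and the median was -0.24. Tgm3, a transglutaminase of the spinous and granular layers and of the hair, fell 1.92-fold. Its values were 10.98 to 11.18 in ILK-deficient against 11.74 to 12.26 with ILK present (limma's adjusted p = 0.00203, passed in all 22 alternatives). Cnfn, which encodes cornifelin of the cornified envelope, fell by 0.40 on the log2 scale (adjusted p = 0.0349 from limma, 8 of 22 alternatives). The early suprabasal keratins Krt1, at -0.06 (adjusted p = 0.753 from limma), and Krt10, at -0.04 (adjusted p = 0.858 from limma), did not pass. The falls of Tgm3 and of the hair shaft markers were seen on the same arrays, and the part of the hair in the value of Tgm3 was not tested.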

How the data were processed

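Epidermal RNA of 10 mice was hybridised to 1 array each. The deposited values are log2 signals per probe set, for which the authors describe background adjustment and quantile normalization. The highest log2 value of an array still ran from 14.71 to 16.66 over the 10 arrays, and the cause was not tested. The methods name GC-RMA, RMA and Partek, and which made the table is not stated. Genotypes were taken from the labels. Probe sets were named from the platform annotation where it gave 1 symbol (21789 of 35556), and 21698 of these symbols were matched to current ones. The probe set with the highest mean stood for a gene. The comparison, in R 4.3.3 with limma 3.58.1, took probe sets that reached 50 on the linear scale in 5 or more arrays (lmFit and eBayes, no covariate, Benjamini-Hochberg adjustment over 32046 probe sets). The fit was tested on simulated data. Exact permutation tests counted all 252 divisions of the 10 arrays into 5 and 5, and correlations between factors used SciPy 1.17.1. The number of arrays limits the precision. Limma's p values set the difference between genotypes against the spread among these mice within a genotype, moderated over all probe sets tested.

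The 9 genes and all lists were chosen with earlier results of these data known. Besides the 9, the text names by rule at most 4 genes per list past the test, those with the largest changes, the 2 most abundant that did not pass, and the gene most like each factor. Marker lists are given by counts. The 22 alternatives changed the filter, scaling, test, probe set rule or block, or left out 1 array each. Single exons were not analysed here.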

Additional observations from a re-analysis of the deposited data

Results flagged for a closer look

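Of the 18 groups formed by 9 factors and 2 genotypes, 4 held an array that stood apart from the other 4 of its genotype by Dixon's criterion for 5 values, a gap of over 0.71 of the group's range to the nearest value. Chance gives this in about 1 of 20 groups. All 4 were in ILK-deficient epidermis. Grhl1 was lowest in replicate 4, at 10.49 with the nearest array at 10.68. Zfp750 was lowest in the same replicate, at 11.77 with the nearest at 12.03. Grhl2 was highest in replicate 1, at 10.54 with the nearest at 10.35. Ovol1 was highest in replicate 3, at 10.82 with the nearest at 10.41.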

How the results depend on the processing

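The main analysis called 1211 probe sets, 1 of the 9 factors and 14 of the 110 other listed genes. The methods' analysis of variance called 686 probe sets, and 1493 were called after quantile normalization was repeated. Averaging all probe sets of a gene called 22 of the listed genes. The mice with prefix D alone gave 294 probe sets, 0 factors and 2 listed genes. The prefix as a block gave 0 factors and 6 listed genes. Whether replicate numbers pair the mice is not known. Deviations of same-numbered arrays had correlations between -0.296 and 0.113, which cannot settle it. With the replicate number as a block, 608 probe sets, 0 factors and 4 listed genes were called. Leaving out 1 array gave 597 to 1010 probe sets, 0 to 1 factors and 5 to 11 listed genes. Trp63 stayed above 0 in all 22 alternatives, 0.32 to 0.38 when an array was left out, and lost its call in 7, also with the replicate block (adjusted p = 0.0695 from limma). Klf4, Grhl1, Grhl2 and Grhl3 kept their sign and stayed uncalled in all 22. Sign changes, none of them called, were found for Cebpa (-0.02 with centred arrays, -0.00 with repeated quantile normalization, -0.08 to 0.07 leaving out an array), Cebpb (0.00 with array weights, 0.06 with prefix D alone, 0.05 with the prefix block, -0.12 to 0.05 leaving out an array), Zfp750 (-0.07 to 0.01 leaving out an array) and Ovol1 (0.10 with prefix D alone, 0.01 with the prefix block, -0.18 to 0.01 leaving out an array). The cause was not tested.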
